A study of Mus musculus with 8 samples.

Results

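The nuclear lamina and LINC complex genes were 10 genes chosen by name from the deposited matrix: the lamin genes Lmna, Lmnb1 and Lmnb2, the lamin B receptor gene Lbr, the SUN genes Sun1, Sun2, Sun3, Sun5 and Spag4, and the nesprin gene Syne1. All 10 were found among the 24988 listed genes. RNA had been sequenced from adult mouse testis in 4 libraries labelled Kpna2-/- and 4 labelled wild type. The importin alpha made from Kpna2 carries proteins into the nucleus, and the study, on infertile males, compared testis expression with and without it. Strain, exact age, the design of the allele and whether animals were pooled were not found in the labels, which also do not say that libraries came from separate animals. The p-values therefore measure the spread between these libraries, which may be technical.

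The lamina is a mesh of lamin filaments under the inner nuclear membrane. SUN proteins cross that membrane and bind nesprins, which carry a KASH domain, in the outer membrane, and this bridge, the LINC complex, joins the nucleus to the cytoskeleton. In the testis SUN1 ties meiotic telomeres to the envelope, whereas SUN3, SUN4 (encoded by Spag4) and SUN5 serve spermatids, in the microtubule manchette that shapes the sperm head and in the joint between head and tail. Germ cells also make short lamins, lamin C2 from Lmna and lamin B3 from Lmnb2, which a value per gene does not separate from the somatic forms.

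The authors deposited CPM, counts of reads per gene divided by a factor for each library. Reads counted in the listed genes, recovered from the deposited values, came to 31133443 to 37797812 per library. Each log2 fold change was taken on log2(CPM + 0.5), knockout-labelled minus wild-type-labelled, with its 95% interval. A gene is said to have risen or fallen only where limma, fitted across the 22027 genes that averaged 0.5 CPM or more, gave an adjusted p under 0.05. Kpna2 itself was not lower under the knockout label: it had 15.3, 20.2, 19.4 and 21.7 CPM in libraries labelled knockout and 13.97, 15.1, 14.04 and 12.4 CPM in libraries labelled wild type. The targeted gene thus goes against the label (limma adjusted p = 0.0079, exact two-sided permutation p = 0.029, the smallest that 70 assignments allow), and all directions below are those of the labelled libraries. Reads per gene do not show which exons were covered. Markers of spermatids, spermatocytes, spermatogonia and testis somatic cells were all detected, none of them at 0.

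Lmnb2, the gene of lamins B2 and B3, was the one member that changed, and 2 stretches upstream of its annotated starts are shown because reads per gene pool transcripts from both. The first start lies at the upstream end of the gene and the second inside the gene. Which lamin form begins at each start was not read here. The stretch upstream of Spag4, the member with the next smallest p, is shown beside them. Each is the 250 bases before a RefSeq start in GRCm38.p6, written 5′ to 3′ on the gene's strand, at chr10:80918246-80918495 (minus strand), chr10:80906413-80906662 (minus strand) and chr2:156064963-156065212 (plus strand). Capitals mark TGACG, the half-site of the cAMP response element, and TGACGTCA, the whole element. Both strands were searched, and the Lmnb2 stretches held no match.
Lmnb2 first start: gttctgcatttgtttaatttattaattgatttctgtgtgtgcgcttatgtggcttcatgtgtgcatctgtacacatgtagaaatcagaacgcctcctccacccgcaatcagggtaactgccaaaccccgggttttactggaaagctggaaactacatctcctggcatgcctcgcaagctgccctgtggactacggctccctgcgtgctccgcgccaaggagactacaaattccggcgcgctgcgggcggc
Lmnb2 second start: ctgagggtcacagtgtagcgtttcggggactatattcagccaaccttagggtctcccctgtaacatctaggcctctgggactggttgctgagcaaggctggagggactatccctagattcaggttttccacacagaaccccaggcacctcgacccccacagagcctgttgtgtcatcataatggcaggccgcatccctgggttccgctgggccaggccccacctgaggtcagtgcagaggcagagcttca
Spag4: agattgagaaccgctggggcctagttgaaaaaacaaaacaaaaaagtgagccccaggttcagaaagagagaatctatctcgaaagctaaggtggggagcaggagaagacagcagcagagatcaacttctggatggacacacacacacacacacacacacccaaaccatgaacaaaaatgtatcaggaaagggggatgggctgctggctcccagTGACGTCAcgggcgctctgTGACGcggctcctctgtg

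The first Lmnb2 stretch held 14 CpG dinucleotides and the second 5, against a median of 6 over all 32851 such windows. Their GC content was 52.8% and 58.0%, against a median of 52.4%. The whole element TGACGTCA ended 29 bases before the RefSeq start of Spag4, and 1.55% of all windows held it. It reads the same on both strands and so holds 2 of the 3 TGACG matches there. In GENCODE M21 the Spag4 gene begins earlier, at 156065175, so by that annotation the element lies within the gene. Of the 15 windows of the 9 members searched, 2 held TGACG, those of Spag4 and of the first Sun1 start, against 17.8% of all windows. Lmnb1 was left out of this search. These matches describe the letters and not binding.

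Of the 10 members, 1 rose and none fell, while 16.9% of all tested genes were called (8.62% higher and 8.32% lower). All 10 passed the filter on low values. Their median log2 fold change was -0.02, against -0.01 over all tested genes, and the median size of change, regardless of direction, was 0.08 for members and 0.13 over all tested genes. The 4 against 4 values did not overlap for 2 members, Lmnb2 and Spag4, where 20.9% of all tested genes had groups that did not overlap. In these bulk libraries fewer cells of a type and less RNA per cell cannot be told apart.

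**Figure D1:**
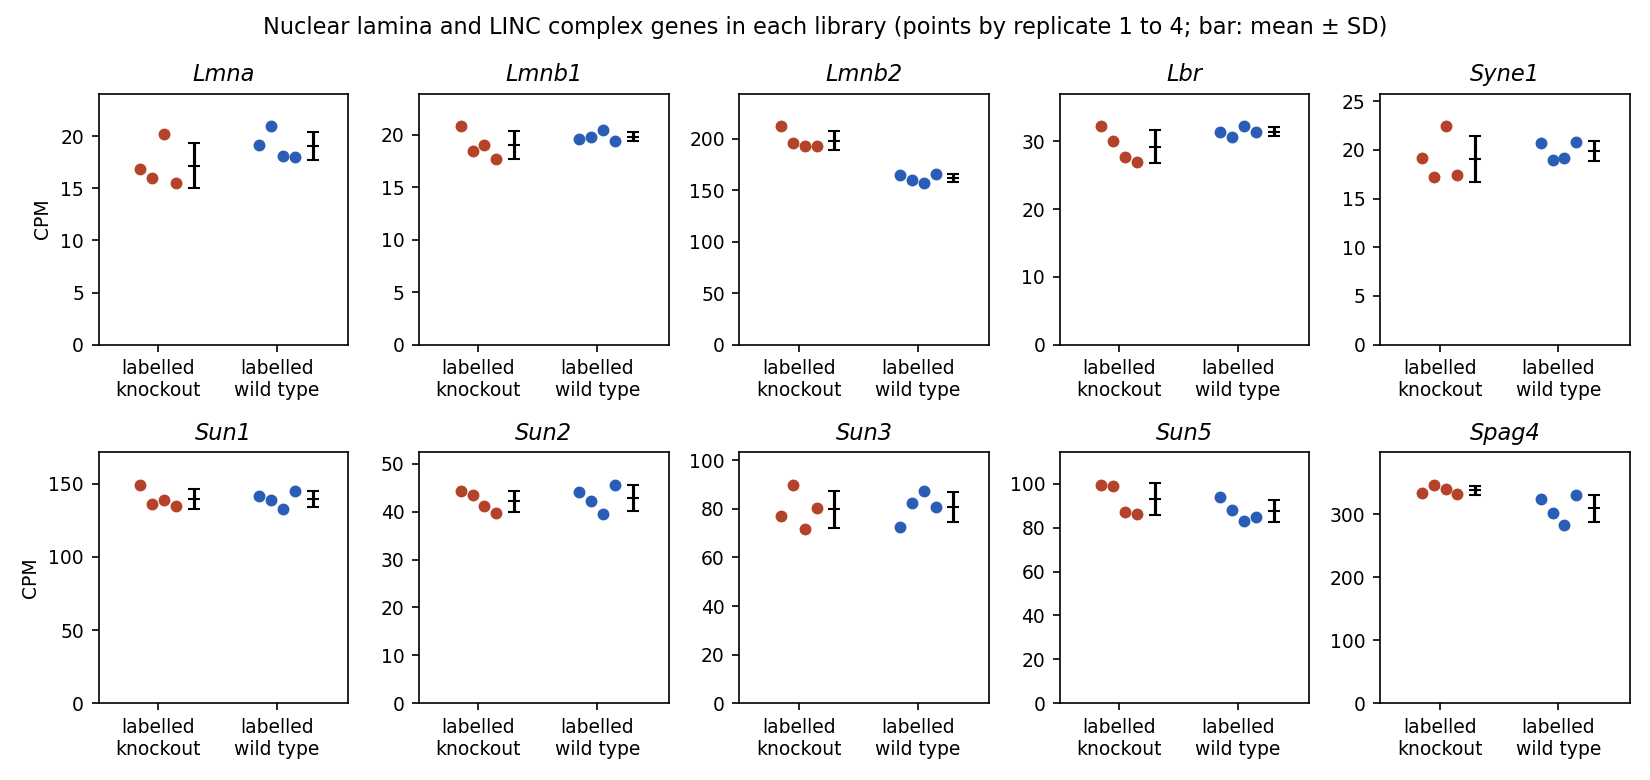
CPM of the 10 genes in each library (y axis from 0), libraries labelled knockout on the left and labelled wild type on the right, with mean ± SD (n = 4 each). For Lmnb2 the 4 libraries labelled knockout, at 193 to 212 CPM, lie above the 4 labelled wild type, at 157 to 166 CPM.

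Lmnb2 (ENSMUSG00000062075; chromosome 10, 80901203 to 80918245 in GRCm38) had 212, 196, 193 and 193 CPM in libraries labelled knockout, against 165, 160.01, 157 and 166 CPM in libraries labelled wild type. Every library labelled knockout was above every library labelled wild type, and replicate 1 of the knockout label was the highest of all 8. The means were 198 ± 9.33 and 162 ± 4.22 CPM (SD, n = 4 each), from 5201 to 7272 reads per library. Lmnb2 rose 1.23-fold, a log2 fold change of 0.29 (0.19 to 0.39, SE 0.05, limma adjusted p = 0.000757). This is a small change beside other called genes, of which 79.8% had a larger one and whose median size was 0.48. Without the high replicate 1 the log2 fold change was 0.26 (limma adjusted p = 0.00186). No annotated gene overlaps Lmnb2 in GENCODE M21.

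Lmnb1, which encodes lamin B1, the B-type lamin of most cells, had 20.8, 18.4, 19.01 and 17.7 CPM in libraries labelled knockout, against 19.6, 19.8, 20.4 and 19.4 CPM in libraries labelled wild type. The groups overlapped, and the knockout-labelled libraries lay both above and below the narrow wild-type range. The log2 fold change of -0.06 (-0.21 to 0.08) did not pass the test (limma adjusted p = 0.58). Within a library, the ratio of Lmnb2 to Lmnb1 in CPM was 10.2, 10.6, 10.2 and 10.9 under the knockout label, against 8.39, 8.10, 7.68 and 8.54 under the wild-type label. This ratio does not depend on the scaling of a library and is given without a test. It holds the Lmnb2 rise and so is no separate measure of that rise.

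Lmna, which encodes lamins A and C, abundant in differentiated somatic cells and low in most germ cells, had 16.9, 16.02, 20.2 and 15.5 CPM in libraries labelled knockout, against 19.2, 20.9, 18.1 and 18.003 CPM in libraries labelled wild type. Replicates 1, 2 and 4 of the knockout label were below every wild-type-labelled library, and replicate 3 was above 3 of them. The log2 fold change was -0.15 (-0.34 to 0.04) and did not pass (limma adjusted p = 0.27, and 0.066 without knockout replicate 3). The ratio of Lmna to the sum of both B-type lamin genes in CPM was 0.0724, 0.0748, 0.0954 and 0.0735 under the knockout label, against 0.104, 0.116, 0.102 and 0.0970 under the wild-type label. Most of that sum is Lmnb2, which rose, so the difference between labels in these ratios holds the Lmnb2 change and is no separate measure of Lmna. Under the knockout label the highest ratio was that of replicate 3, where Lmna was also highest.

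Markers of testis somatic cells were read beside Lmna. Over all tested genes 16.9% were called, 8.62% higher and 8.32% lower. Of 12 markers of peritubular myoid cells, 5 fell and none rose, and their summed level was 453 to 492 CPM under the knockout label and 520 to 614 CPM under the wild-type label. Much of that sum was 1 gene, Actg2, with means of 246 CPM under the knockout label and 296 CPM under the wild-type label. Of 10 fibroblast and matrix genes 9 fell, with sums of 91.0 to 138 CPM under the knockout label and 202 to 242 CPM under the wild-type label. Col3a1, a fibrillar collagen gene, had a mean of 11.7 CPM in libraries labelled knockout and 36.3 CPM in those labelled wild type, and Acta2, smooth muscle actin, 28.5 and 41.3 CPM. Among 12 Sertoli cell markers 3 fell and none rose, including Sox9 and Defb36. With a pseudocount of 0.1 CPM, a filter at 2 CPM, median ratio scaling or quantile normalization, 2 Sertoli cell markers fell. The Sertoli sums were 1194 to 1378 CPM under the knockout label and 1354 to 1457 CPM under the wild-type label. Most of the Sertoli sum was Clu, which was not called, with means of 787 and 842 CPM under the knockout and wild-type labels. Among 9 Leydig cell markers 4 fell and 1, Hsd3b1, rose. Their sums were 779 to 1203 CPM under the knockout label and 1159 to 1367 CPM under the wild-type label. Lmna in knockout replicate 3 was above 3 of the wild-type-labelled libraries. Libraries labelled knockout, replicate 3 included, were all below those labelled wild type for 6 of 12 myoid markers. The same held for 9 of 10 fibroblast and 3 of 12 Sertoli markers. Of 9 Leydig markers 5 did not overlap, Hsd3b1 higher and the others lower. Over all tested genes 20.9% did not overlap, in either direction. In replicate 3, Col3a1 at 14.3 CPM, Acta2 at 29.2 CPM and Sox9 at 12.2 CPM were below all 4 wild-type-labelled libraries. Smtn (myoid) at 7.07 CPM, Trf (Sertoli) at 37.2 CPM, and Insl3 at 471 and Hsd3b1 at 88.7 CPM (Leydig) were above all 4. No other marker of these lists was. The part of these cell types in the Lmna values was not tested.

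Markers of the germ cells that fill the tubules were read in the same way, beside the 16.9% of all tested genes that were called (8.32% lower). Of 8 pachytene spermatocyte markers 1, Sycp1, fell, and none of 8 round spermatid or 8 elongating spermatid markers was called (1 and 0 of them at an unadjusted p under 0.05). Their summed levels were 6492 to 7003 CPM for spermatocytes, 2154 to 2435 CPM for round spermatids and 24092 to 30648 CPM for elongating spermatids under the knockout label. Under the wild-type label they were 6678 to 6780, 2145 to 2236 and 27136 to 28497 CPM. Pgk2, with means of 974 and 924 CPM under the knockout and wild-type labels, was in both the spermatocyte and round spermatid lists. Those sums are therefore not separate readings. Ldhc, at 3475 and 3537 CPM, was the largest part of the spermatocyte sum. The Sycp1 call was lost without knockout replicate 3 or 4 and without wild-type replicate 1, 2 or 3, each of which left 0 of the 8 spermatocyte markers called lower. Of 8 spermatogonial markers Uchl1 and Dmrt1 fell, with sums of 111 to 123 CPM under the knockout label and 119 to 130 CPM under the wild-type label. Neither passed without knockout replicate 3 or without wild-type replicate 1. With quantile normalization, or without knockout replicate 2 or 4 or wild-type replicate 2, 3 or 4, 1 spermatogonial marker was called lower. For endothelial cells 2 of 8 markers fell, Tek and Vwf, with sums of 33.0 to 41.0 CPM under the knockout label and 40.1 to 45.2 CPM under the wild-type label. The endothelial markers did not move 1 way: 4 had a higher and 4 a lower log2 fold change, with a median of -0.05. Cldn5 had a log2 fold change of 0.39 without a call (limma adjusted p = 0.056). With quantile normalization 1 endothelial marker was called higher. No macrophage marker of 8 was called by limma (2 at an unadjusted p under 0.05), with sums of 72.7 to 98.04 CPM under the knockout label and 85.1 to 93.7 CPM under the wild-type label. For spermatocytes, round and elongating spermatids and macrophages the ranges overlapped, as they did for spermatogonia and endothelial cells. The part of these cell types in the Lmnb2 value was not tested.

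Lbr encodes the lamin B receptor, an inner membrane protein that holds B-type lamins and heterochromatin at the nuclear edge and also works as a sterol reductase. It had 32.2, 30.1, 27.7 and 26.9 CPM in libraries labelled knockout, against 31.4, 30.6, 32.2 and 31.4 CPM in libraries labelled wild type. Replicates 2, 3 and 4 of the knockout label were below all wild-type-labelled libraries and replicate 1 was not. The log2 fold change was -0.10 (-0.24 to 0.04, limma adjusted p = 0.31). About 9.24% of its exon bases are shared with Dnah14, a dynein gene on the opposite strand at 205 and 225 CPM under the knockout and wild-type labels. No strand setting is given in the sources used here, so reads of Lbr and Dnah14 cannot be told apart there.

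Sun1 and Sun2, the SUN genes used in soma and in meiosis, had overlapping values in the groups. Sun1 had 149, 136, 139 and 135 CPM in libraries labelled knockout, against 142, 139, 133 and 145 CPM in libraries labelled wild type. Its log2 fold change of 0.00026 had an interval of -0.11 to 0.11 (limma adjusted p = 0.998), and the sign turned in 4 of 17 alternatives. Sun2 had 44.3, 43.4, 41.1 and 39.7 CPM under the knockout label, against 44.2, 42.2, 39.4 and 45.6 CPM under the wild-type label. The 2 sets overlapped throughout, with a log2 fold change of -0.02 (-0.16 to 0.11, limma adjusted p = 0.83) whose sign turned in 2 of 17 alternatives. Within a library Sun1 exceeded Sun2 3.13 to 3.39 times in CPM under the knockout label and 3.18 to 3.36 times under the wild-type label.

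Among the spermatid SUN genes, Spag4, whose product SUN4 sits at the manchette and the head-tail joint, had 333, 347, 339.99 and 332 CPM in libraries labelled knockout, against 324, 302, 283 and 330 CPM in libraries labelled wild type. The groups did not overlap, but the lowest value under the knockout label, 331.8 CPM, was close to the highest under the wild-type label, 330.2 CPM. The means were 338 ± 6.87 and 310 ± 21.4 CPM (SD, n = 4 each). The log2 fold change of 0.13 (0.02 to 0.24) had an unadjusted p of 0.028 and did not pass over all genes (limma adjusted p = 0.11, and 0.067 to 0.29 in 17 alternatives).

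Sun5, needed to anchor the tail to the sperm head, had 99.6, 99.2, 87.2 and 86.2 CPM in libraries labelled knockout, against 94.1, 88.2, 82.9 and 84.9 CPM in libraries labelled wild type. Its groups overlapped (log2 fold change 0.09, -0.05 to 0.22, limma adjusted p = 0.39). Sun3, a manchette SUN gene, had 77.2, 89.9, 71.7 and 80.4 CPM under the knockout label, against 72.7, 82.5, 87.3 and 80.6 CPM under the wild-type label. It overlapped fully and gave a log2 fold change of -0.02 (-0.17 to 0.14, limma adjusted p = 0.89), with a sign that turned in 2 of 17 alternatives. Some 9.47% of Sun3 exon bases are shared with Gm11992 on the opposite strand, which was not called. The Spag4 to Sun5 ratio in CPM was 3.35 to 3.90 under the knockout label and 3.42 to 3.89 under the wild-type label. For Sun3 over Sun5 it was 0.775 to 0.932 under the knockout label and 0.772 to 1.05 under the wild-type label.

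Syne1, the gene of nesprin 1, a giant KASH protein that reaches actin and is also made in shorter forms, had 19.1, 17.2, 22.4 and 17.4 CPM in libraries labelled knockout, against 20.7, 18.9, 19.2 and 20.8 CPM in libraries labelled wild type. As for Lmna, replicate 3 was the highest under the knockout label, here above all other libraries. The log2 fold change was -0.07 (-0.25 to 0.11, limma adjusted p = 0.64). Syne1 was also among the members with the widest spread under the knockout label, a coefficient of variation of 12.6% beside 12.5% for Lmna and 2.03% for Spag4. Under the wild-type label these were 4.999%, 7.19% and 6.92%.

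**Figure D2:**
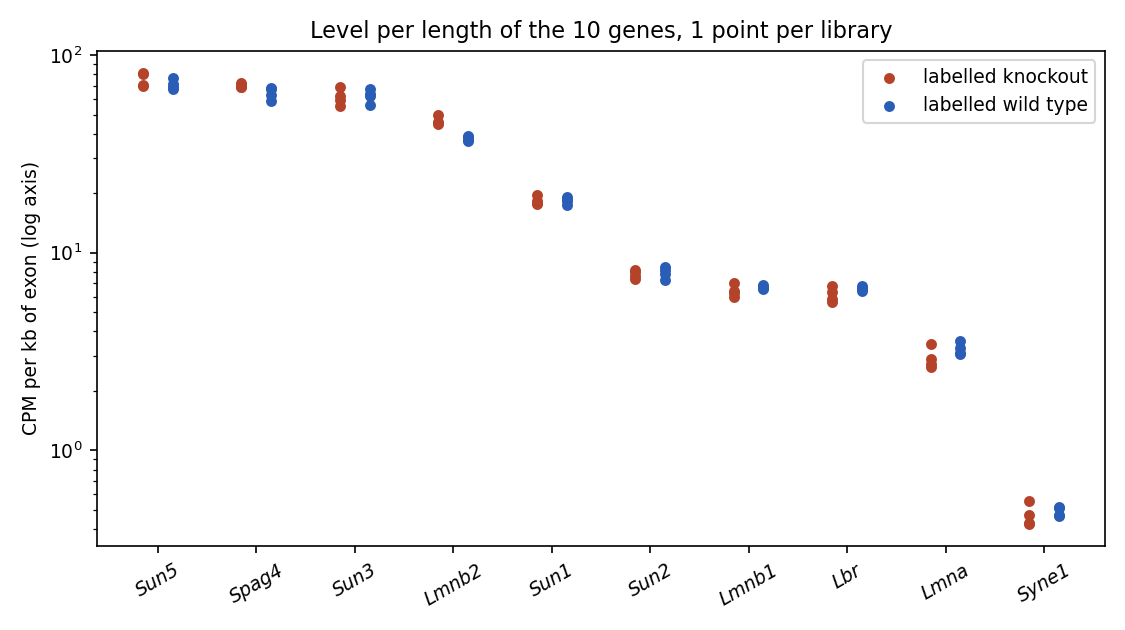
CPM per kilobase of annotated exon for the 10 genes (log axis), 1 point per library, libraries labelled knockout left of those labelled wild type. Sun5, Spag4 and Sun3 stand highest and Syne1 lowest under both labels.

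Levels of different genes can be compared per length. In CPM per kilobase of exon, Sun5 stood at 75.5 ± 5.96 under the knockout label and 71.1 ± 3.99 under the wild-type label, Spag4 at 69.96 ± 1.42 and 64.1 ± 4.44, Sun3 at 61.4 ± 5.89 and 62.2 ± 4.68 (SD, n = 4 each). Library values of neighbours overlapped among these spermatid SUN genes. Lmnb2 came next at 46.3 ± 2.18 under the knockout label and 37.8 ± 0.985 under the wild-type label. It was followed by Sun1 at 18.4 under both labels and Sun2 at 7.77 under the knockout label and 7.91 under the wild-type label. Lmnb1 at 6.41 and 6.69 and Lbr at 6.14 and 6.59 overlapped each other, Lmna stood at 2.94 and 3.26, and Syne1 at 0.471 and 0.492. Lengths count every annotated exon, retained introns included. With the length of the principal coding transcript, chosen after the data were seen, Spag4 stood highest at 229 and 210 CPM per kilobase, and Lmnb2 at 58.9 and 48.1 CPM per kilobase came next below Sun3, at 66.2 and 67.03 CPM per kilobase, under the knockout and wild-type labels. The library values of Lmnb2 and Sun3 then overlapped under the knockout label and not under the wild-type label. Lbr at 8.32 and 8.94 then stood above Lmnb1 at 6.68 and 6.97 CPM per kilobase under the knockout and wild-type labels, with no overlap of library values. Sun1 stood at 33.8 under both labels and Lmna at 5.43 under the knockout label and 6.04 under the wild-type label, both over 1.5 times their level per kilobase of all exons.

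**Figure D3:**
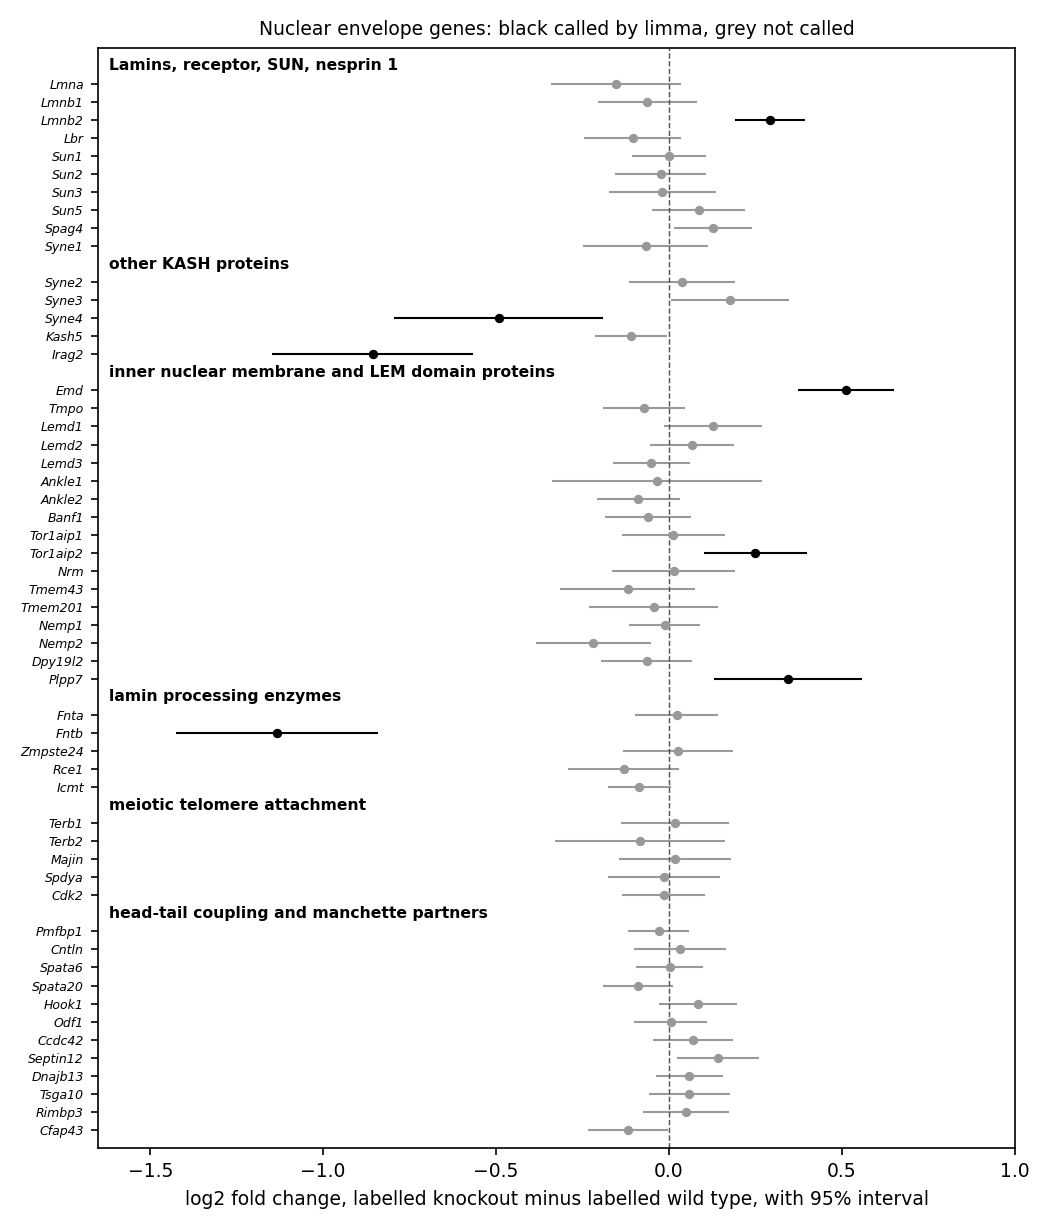
Log2 fold change on the log2(CPM + 0.5) scale, knockout-labelled minus wild-type-labelled libraries, with 95% limma intervals (x axis), for the 10 genes and 5 lists of other nuclear envelope genes. Called genes are black: Lmnb2, Emd, Tor1aip2 and Plpp7 to the right of 0, and Fntb, Irag2 and Syne4 to the left.

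Partners of the lamina and the LINC complex were read from 5 further lists with 44 different genes, all tested. Of these, 3 rose and 3 fell, or 13.6%, against 16.9% of all tested genes, and their median log2 fold change was -0.0052. The 3 that rose were all in the list of 17 genes headed inner membrane and LEM domain, of which 17.6% were called. That heading does not place each protein at the inner membrane. The 3 that fell were 2 of 5 other KASH genes and 1 of 5 lamin processing enzymes. No gene was called among 6 of meiotic telomere attachment or 12 of head-tail coupling and the manchette (1 and 2 at an unadjusted p under 0.05). By edgeR 6 of the 44 were called, by DESeq2 7, and without knockout replicate 3 limma called 3. Of the 3 that rose, Emd alone passed without knockout replicate 3 or without wild-type replicate 2.

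Emd encodes emerin, an inner membrane protein that binds lamins and the chromatin protein BAF. It had 28.2, 25.3, 24.3 and 25.7 CPM in libraries labelled knockout, against 18.04, 18.1, 18.1 and 17.6 CPM in libraries labelled wild type. The groups were well apart, and Emd rose 1.44-fold (log2 fold change 0.51, 0.37 to 0.65, limma adjusted p = 9.38e-05). Other LEM domain genes did not pass, among them Tmpo, which encodes LAP2 proteins, with a log2 fold change of -0.07, and Lemd2 and Lemd3, with 0.07 and -0.05. Some 13.6% of Emd exon bases are shared with a pseudogene, Gm14686, on the same strand.

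Tor1aip2, an activator of torsin ATPases, rose 1.19-fold, with 85.2, 81.9, 84.4 and 73.6 CPM in libraries labelled knockout, against 69.2, 60.8, 76.002 and 67.5 CPM in libraries labelled wild type. The groups overlapped by 1 library each, and the log2 fold change was 0.25 (limma adjusted p = 0.024). The call was lost without knockout replicate 1 (adjusted p = 0.055) or 3 (0.058) and without wild-type replicate 2 (0.081) or 4 (0.054). Its neighbour Tor1aip1 on the opposite strand, another torsin activator, stood at 262 and 260.1 CPM under the knockout and wild-type labels and was not called. Some 7.58% of Tor1aip2 exon bases are shared with Tor1aip1. With no strand setting given, reads of the 2 genes cannot be told apart there. Plpp7, which encodes the nuclear envelope protein NET39, rose 1.31-fold from a low level, 4.47 ± 0.235 CPM under the knockout label and 3.41 ± 0.171 CPM under the wild-type label (log2 fold change 0.34, limma adjusted p = 0.029). This call was lost with the replicate block (adjusted p = 0.062), without knockout replicate 2 (0.066) or 3 (0.062), and without wild-type replicate 1 (0.0503), 2 (0.065), 3 (0.052) or 4 (0.073).

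Fntb encodes the beta subunit of farnesyltransferase, the enzyme that attaches the farnesyl lipid to B-type lamins and to the precursor of lamin A. It had 8.67, 10.04, 7.13 and 8.96 CPM in libraries labelled knockout, against 16.5, 21.5, 16.2 and 25.3 CPM in libraries labelled wild type. All 4 values under the knockout label were below the wild-type-labelled libraries, which themselves spread widely. Fntb fell, with a mean 2.29-fold higher in libraries labelled wild type (log2 fold change -1.13, -1.43 to -0.84, limma adjusted p = 6.11e-05). Fnta, the alpha subunit that farnesyltransferase shares with another prenyl transferase, had a log2 fold change of 0.02 (limma adjusted p = 0.83). The later processing enzymes Zmpste24, Rce1 and Icmt, which trim and methylate the lamin tail, had 0.03, -0.13 and -0.09, none of them called. Some 6.45% of Fntb exon bases are shared with Churc1 on the same strand, which stood at 13.9 and 14.2 CPM under the knockout and wild-type labels and was not called.

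Irag2, a KASH-like gene of the endoplasmic reticulum and outer nuclear membrane, had 0.467, 0.830, 0.581 and 0.582 CPM in libraries labelled knockout, against 1.602, 1.44, 1.54 and 1.44 CPM in libraries labelled wild type. It fell, with a mean 2.45-fold higher in libraries labelled wild type, from 16 to 55 reads per library (limma adjusted p = 0.000614). Its log2 fold change of -0.86 depends on the pseudocount and was -1.19 with 0.1 CPM and -0.42 with 2 CPM. Some 2.48% of its exon bases are shared with Casc1 on the opposite strand, which rose by 0.21 on the log2 scale. Syne4, the gene of nesprin 4, had 0.730, 1.0297, 0.678 and 0.815 CPM in libraries labelled knockout, against 1.34, 1.07, 1.57 and 1.42 CPM in libraries labelled wild type. Its log2 fold change was -0.49 (limma adjusted p = 0.027) from 21 to 54 reads per library. The Syne4 call was lost with the replicate block (adjusted p = 0.057), without knockout replicate 1 (0.058), 3 (0.072) or 4 (0.056), and without wild-type replicate 1 (0.061), 3 (0.081) or 4 (0.065). Among the other KASH genes, Kash5, which couples meiotic telomeres to dynein, had 115 ± 5.28 CPM under the knockout label and 124 ± 3.42 CPM under the wild-type label, without a call (limma adjusted p = 0.14).

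In the head-tail and manchette list the smallest p was that of Septin12, a septin of the sperm tail. It stood at 310 ± 17.3 CPM under the knockout label and 281 ± 16.7 CPM under the wild-type label (log2 fold change 0.14, limma adjusted p = 0.098) and passed without knockout replicate 2 (0.038). Pmfbp1 and Odf1, other genes of the tail joint and outer dense fibres, had log2 fold changes of -0.03 (-0.12 to 0.06) and 0.0052 (-0.10 to 0.11). All 5 genes listed with Kash5 for telomere attachment, Terb1, Terb2, Majin, Spdya and Cdk2, had log2 fold changes between -0.08 and 0.02.

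**Figure D4:**
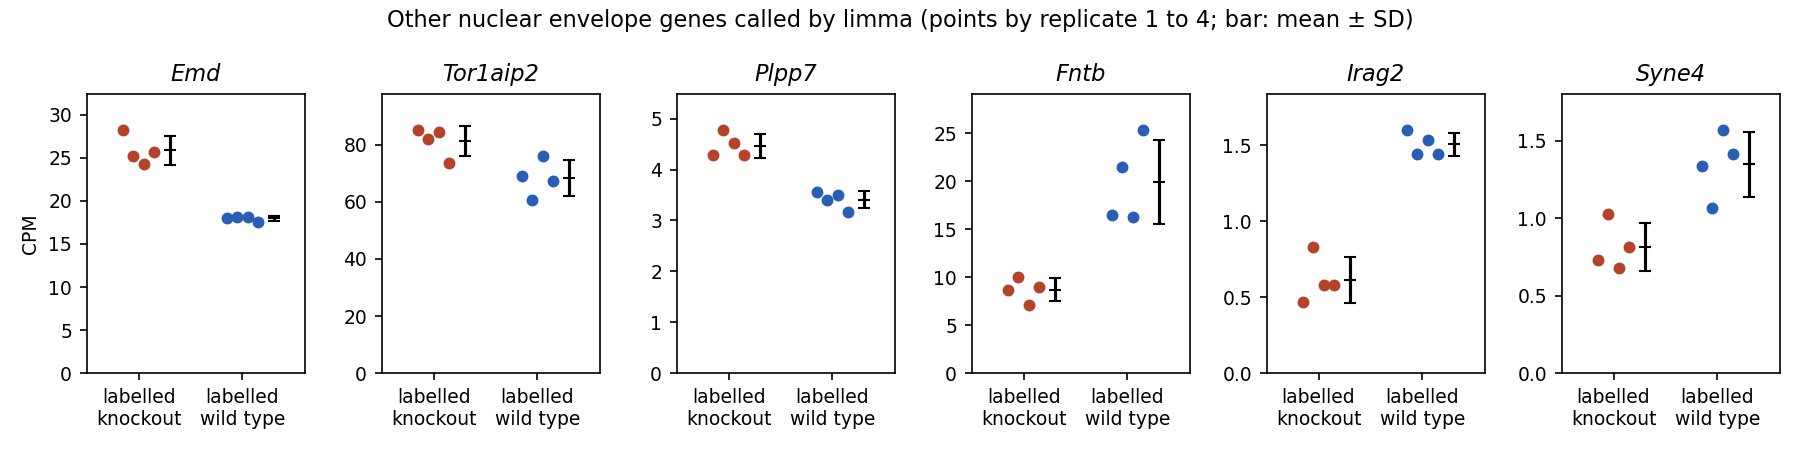
CPM in each library (y axis from 0) of the 6 other nuclear envelope genes called by limma, libraries labelled knockout left of those labelled wild type, with mean ± SD (n = 4 each). Emd, Plpp7, Fntb, Irag2 and Syne4 have groups that do not overlap, and for Tor1aip2 knockout replicate 4 at 73.6 CPM lies below wild-type replicate 3 at 76.002 CPM.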

How the data were processed

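Per the labels' protocols, TRIzol extracts of testis were made into TruSeq libraries. Trimmomatic, Subread, featureCounts and GRCm39 are named in the submitters' processing notes. Versions, annotation release, strand setting and the handling of multi-mapped reads were not given in the sources used here. The authors deposited a per-library scaled signal, named CPM in the file, for 24988 genes. Columns named control and kpn were matched to titles by number, taking control to mean wild type. All values were whole multiples of the smallest value above 0 in a column, within 0.01 of a read (100% of values), which gave back whole reads. Since columns summed to 990244 to 1025489, the planned test for plain CPM was kept as a test of the scaled signal. A count of 3 reads is 0.0786 to 0.0968 CPM, for counting error only.

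Tests were made with limma 3.58.1 in R 4.3.3 (lmFit, eBayes with a trend) on log2(CPM + 0.5), filter at a mean of 0.5 CPM, no covariate, Benjamini-Hochberg adjustment over 22027 genes at 0.05. Lists are given by counts and medians, without a set test. Alternatives were pseudocounts of 0.1 and 2 CPM, no filter, a filter at 2 CPM, median ratio scaling, quantile normalization, a replicate block, each library left out, and both edgeR 4.0.16 (quasi-likelihood) and DESeq2 1.42.0 on those whole reads, scaled as deposited. By edgeR 3694 genes were called, 3630 of them shared with limma. No pair of libraries in a group agreed within sampling noise (chi-square per degree of freedom 4.63 to 11.7). Symbols were found for 24890 identifiers. Positions, overlaps and exon lengths are from GENCODE M21 on GRCm38, another build than the authors used, and were not converted. Upstream sequences are from RefSeq (GRCm38.p6) and were taken for 9 of the 10 genes. Windows on chromosome 18, where Lmnb1 lies, were left out for members but not from the counts over all windows.

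Named genes were the 10 members, Kpna2, the called genes of each other nuclear envelope list (at most 4 of smallest p, or the smallest p where none was called) and up to 2 called markers of a cell type. Tmpo, Lemd2, Lemd3, Tor1aip1, Fnta, Zmpste24, Rce1, Icmt, Pmfbp1, Odf1 and the telomere genes were named beyond this rule, after their values were seen. So were the markers Smtn, Trf, Insl3, Cldn5, Clu, Pgk2 and Ldhc. Members and lists were chosen with earlier results of these data known.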

Additional observations from a re-analysis of the deposited data

Results flagged for a closer look

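Among 38 groups of 4 libraries, those of the 10 members, Kpna2 and 8 other nuclear envelope genes, 2 held a library far from the other 3 by Dixon's criterion, where chance gives about 1 group in 20. Lmnb2 stood at 212 CPM in knockout replicate 1, above the 193 to 196 CPM of the other 3 libraries of that label. Emd stood at 17.6 CPM in wild-type replicate 4, just below the 18.04 to 18.1 CPM of the other 3.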

How the results depend on the processing

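Lmnb2 was the one member called in the main test and in each of the 17 alternatives, with log2 fold changes of 0.26 to 0.31 and adjusted p of 2.82e-07 to 0.0044. No other member was called in any. Values near 0 turned sign: Sun1 was -0.018 with quantile normalization, and with 1 library left out Sun1 was -0.032 to 0.019, Sun2 -0.063 to 0.0063 and Sun3 -0.078 to 0.031. The causes were not tested. Over all genes 3731 were called, 2788 to 3572 with 1 library left out, and 2997 to 4073 under the alternatives that kept all 8 libraries. No alternative moved the median of all genes by over 0.1. No pairing of libraries by number was seen (same-number correlations of deviations -0.03 to 0.04, other numbers -0.06 to 0.07). Knockout replicate 1 correlated best with wild-type replicate 4, and knockout replicate 2 with its own number. All these correlations were small, so the check cannot exclude a pairing. With the replicate block 3446 genes were called, and Lmnb2 kept its call (adjusted p = 0.0021). Irag2 and Syne4 were not tested under the filter at 2 CPM. Low read numbers limit both. The choice of isoform and of transcript start cannot be read from values per gene.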
